A study of Homo sapiens with 12 samples.

Results

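Ribosome footprints (the short mRNA fragments protected by ribosomes from nuclease digestion) were counted over the genes of the core histones H2A, H2B, H3 and H4 and of the linker histone H1. The genes were taken by symbol: every symbol that begins with H1-, H2AC, H2BC, H3C or H4C followed by a digit was included. This gave 70 of the 13074 genes in the count table, of which 7 code for H1, 16 for H2A, 19 for H2B, 13 for H3 and 15 for H4. All 70 passed the filter on low counts and were among the 10467 genes tested. The cells were A375, an established human melanoma line, in 4 groups of 3 libraries. These were FTSJ1 knockout cells without selenium supplementation ("KO without selenite"), WT cells without it ("WT without selenite"), knockout cells given 30 nM sodium selenite ("KO with selenite") and WT cells given the same dose ("WT with selenite"). FTSJ1 is an RNA methyltransferase that acts on the anticodon loop of certain tRNAs. The genotype label reads FTS1 KO, and the titles name a single knockout line, KO1, so that the effect of losing FTSJ1 cannot be told apart from other features of that line. The files hold footprint counts without matched mRNA counts, and changes in mRNA amount and in translation were therefore not separated. No label states that replicate libraries were grown as independent cultures. The spread on which every p-value rests is thus that among the libraries as deposited, and it may be technical.

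The core histones form the protein spool of the nucleosome around which DNA is wound, and H1 binds the linker DNA where it enters and leaves that spool. Most of these genes are short, intronless and clustered, and many copies code for the same or nearly the same protein. The replication-dependent copies are expressed mainly in S phase, from mRNAs that end in a stem-loop in place of a poly(A) tail, so that new histones are made as DNA is copied. H1-10 is a linker histone whose expression does not depend on replication.

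Library totals ran from 520989 to 1543627 counts. The lowest were those of KO with selenite replicates 3 and 2, at 520989 and 636920 counts, and the next lowest total was 951567. Levels are given as CPM, the count relative to the library's size, with each size scaled by a TMM factor so that most genes align between libraries. A count of 3 corresponded to 1.97 to 5.99 CPM, a limit that covers counting error only. FTSJ1 itself had 0, 7 and 2 counts in KO without selenite, against 82, 71 and 64 in WT without selenite. It had 6, 0 and 6 counts in KO with selenite, against 70, 68 and 71 in WT with selenite. Of 11 marker genes of melanoma and pigment cells, 7 are in the table, with a summed level of 667 to 741 CPM in KO without selenite, 1261 to 1349 CPM in WT without selenite, 855 to 1016 CPM in KO with selenite and 1285 to 1389 CPM in WT with selenite. Markers of other cell types were at or near 0: the 4 leukocyte markers and the hepatocyte marker summed to 0 counts, KRT14 of epithelium reached 9.84 CPM and the 1 endothelial marker counted reached 6.56 CPM. The sum of the melanoma markers was lower in KO in both conditions. Of 6 tested singly, 5 were lower in KO without selenite and 4 with it, at an edgeR adjusted p under 0.05. Over all genes 12% and 21.6% were lower in this way. With selenite 1 of the 6 was above 0 in KO over WT. SOX10 rose with selenite in KO by a log2 fold change of 0.86 ± 0.12 (edgeR adjusted p = 9.24e-06). The part of these markers in the histone results was not tested.

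Histone genes took 5.06, 6.20 and 5.97% of all counts in KO without selenite, against 6.57, 6.71 and 6.68% in WT without selenite. They took 7.17, 8.40 and 8.995% in KO with selenite, against 5.85, 7.11 and 6.95% in WT with selenite. The 3 KO libraries with selenite thus held the highest shares of the 12, and the exact Clopper-Pearson 95% intervals of the extremes were 5.03 to 5.10% for KO without selenite replicate 1 and 8.92 to 9.07% for KO with selenite replicate 3. These intervals cover counting error only.

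Per kilobase of annotated gene span, among members with spans of at most 900 bases, the highest mean level over all libraries in each class was 11085 CPM per kb for H4C14, 7083 for H3C15, 6078 for H2AC18, 3404 for H1-2 and 1447 for H2BC8. The class medians were 2144 CPM per kb for H1, 1770 for H4, 1679 for H3, 1539 for H2A and 976 for H2B. At the low end stood H2BC1, the gene of a testis H2B, at 9.74 CPM per kb, H4C7, whose product differs from other H4 proteins, at 34.8, and H1-1, a somatic linker histone, at 78.0. Members with longer annotated spans, up to 29682 bases for H2BC18, were not placed on this scale.

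On GRCh38.p14, 32 members lie in one cluster on chromosome 6 (chr6:25726777-26285534) and 21 in a second (chr6:27132316-27893891). A cluster on chromosome 1 (chr1:149782689-149887965) holds 11, and the neighbours H2AC25 and H2BC26 lie at chr1:228457364-228458558. The other 4 members lie elsewhere, among them H1-10 on chromosome 3, H4C16 on chromosome 12 and H2BC12L on chromosome 21. The members had a median of 50 protein-coding genes within 1 Mb, with a range of 17 to 57, against a median of 20 over all tested genes.

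Some members could not be told apart by their counts. H2AC18 and H2AC19 had identical counts in 12 of 12 libraries, 45391 in all for each, and so did H4C14 and H4C15, with 61242 each. H3C14 and H3C15 were identical in 11 of 12 libraries and differed by 1 count in the other, and the same held for H4C11 and H4C12. Among 9862 other genes with at least 100 counts, 36 had a partner with identical counts. How reads that match several genes were assigned is not given in the sources used here, so each pair is best read as 1 measurement printed under both names. The upstream sequences of the pairs are also alike. The promoter windows, from 250 bases before to 50 bases after the annotated start in RefSeq (GRCh38.p14), matched at 300 of 300 bases for H4C14 and H4C15, at 299 of 299 aligned bases for H2AC18 and H2AC19, at 296 of 296 for H3C14 and H3C15 and at 295 of 300 for H4C11 and H4C12. The H4C14 window, chr1:149832407-149832706 on the plus strand, is shown because the minus strand at chr1:149861110-149861409, upstream of H4C15, reads the same letter for letter:
H4C14: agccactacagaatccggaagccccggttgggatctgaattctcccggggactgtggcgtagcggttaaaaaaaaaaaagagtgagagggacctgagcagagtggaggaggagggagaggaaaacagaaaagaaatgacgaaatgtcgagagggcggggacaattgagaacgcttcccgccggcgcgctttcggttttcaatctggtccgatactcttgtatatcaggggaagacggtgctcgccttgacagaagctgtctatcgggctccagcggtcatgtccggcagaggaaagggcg
Annotated spans overlap as well: that of H4C15 contains H2AC19 and H3C15, that of H3C4 contains H2AC7 and that of H2BC12 contains H4C9. H4C15 had the same counts as H4C14, whose span overlaps no other member, so its counts do not hold the reads of H2AC19 or H3C15. H3C4 and H2AC7 share an annotated start, so strand alone would not part them. How overlapping spans and strand were treated is not given in the sources used here. Reads shared by H3C4 and H2AC7, or by H2BC12 and H4C9, thus cannot be told apart.

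Of the H2A and H2B genes, 20 stand in 10 head-to-head pairs whose starts lie 194 to 248 bases apart, so that 1 stretch of DNA is the upstream region of both. The windows of 3 such pairs are shown because their H2A and H2B genes moved apart with selenite. Each is read on the strand of the H2B gene and reaches from the H2B start region back past the start of its H2A partner. They are H2BC8 (chr6:26216639-26216938, minus strand), H2BC7 (chr6:26199266-26199565, plus strand) and H2BC13 (chr6:27807880-27808179, minus strand). Capitals mark ATTTGCAT (the octamer bound by POU factors such as OCT1), CCAAT (the box bound by NF-Y) and TATAAA, searched on both strands, so that ATGCAAAT, ATTGG and TTTATA count as well.
H2BC8: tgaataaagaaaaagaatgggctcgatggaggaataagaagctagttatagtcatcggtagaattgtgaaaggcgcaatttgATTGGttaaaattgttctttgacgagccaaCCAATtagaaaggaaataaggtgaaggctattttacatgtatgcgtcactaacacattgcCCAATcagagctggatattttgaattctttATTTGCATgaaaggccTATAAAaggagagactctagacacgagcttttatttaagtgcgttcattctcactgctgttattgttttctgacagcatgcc
H2BC7: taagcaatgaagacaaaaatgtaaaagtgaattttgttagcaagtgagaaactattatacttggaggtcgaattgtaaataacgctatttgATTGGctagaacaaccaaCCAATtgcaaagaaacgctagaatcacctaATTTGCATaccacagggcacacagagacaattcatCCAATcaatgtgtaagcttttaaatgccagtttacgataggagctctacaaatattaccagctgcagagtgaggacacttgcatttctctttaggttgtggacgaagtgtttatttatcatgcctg
H2BC13: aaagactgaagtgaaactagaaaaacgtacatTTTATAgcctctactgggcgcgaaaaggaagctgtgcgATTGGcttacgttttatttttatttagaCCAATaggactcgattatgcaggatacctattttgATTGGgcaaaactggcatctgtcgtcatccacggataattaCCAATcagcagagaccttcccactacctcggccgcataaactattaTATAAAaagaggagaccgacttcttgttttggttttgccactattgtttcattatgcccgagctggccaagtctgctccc
The octamer lies at -48 of the H2BC8 start and at -111 of the H2BC7 start, and these letters are not in the H2BC13 window. Windows were at hand for 63 of the 70 members. The octamer was found in 14 of 18 H2B windows (77.8%) and 10 of 15 H2A windows (66.7%), in 1 of 11 H3 windows, that of H3C4, which is annotated to the same start as H2AC7, and in none of 6 H1 or 13 H4 windows. Over all 27305 promoters it was found in 1.80%. CCAAT was found in 52 of the 63 member windows (82.5%) against 35.7% of all promoters, and among H4 windows in 3 of 13. TATAAA was found in 66.7% of member windows and 11.95% of all promoters. A match describes the letters and is not a tested binding site.

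Summed over the class, H2A genes had 18570, 22593 and 24945 CPM in KO with selenite, against 14114, 17864 and 17022 CPM in WT with selenite. H3 genes had 17140, 20854 and 22739 CPM in KO with selenite, against 12202, 15799 and 16165 CPM in WT with selenite. Linker histones had 8324, 10066 and 10932 CPM in KO with selenite, against 6453, 7235 and 6832 CPM in WT with selenite. In these 3 classes every KO library with selenite lay above every WT library with selenite. H2B genes had 11257, 13196 and 12875 CPM in KO with selenite, against 9212, 12259 and 11470 CPM in WT with selenite, and H4 genes had 17561, 21036 and 22070 CPM against 15615, 18609 and 17844 CPM. For H2B and H4 the deepest KO library with selenite, replicate 1, fell inside the WT range.

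Without selenite the summed level was lower in KO on average. All histone genes together averaged 57238 ± 6278 CPM in KO without selenite and 66434 ± 773 CPM in WT without selenite (SD, n = 3 each), a ratio of 0.862. With selenite they averaged 84720 ± 10681 CPM in KO and 66231 ± 7577 CPM in WT (SD, n = 3 each), a ratio of 1.28. The ratio of selenite to none was 1.48 in KO and 0.997 in WT. Within the histone total, H2B made up 15.5, 15.0 and 13.8% in KO with selenite, against 15.99, 17.1 and 16.5% in WT with selenite, and H4 made up 24.1, 23.97 and 23.6% against 27.1, 25.9 and 25.7%. These shares did not overlap between the genotypes. With selenite the shares of H1, H2A and H3 did not overlap either and were higher in KO. Without selenite the H4 share was also apart, at 25.2, 23.9 and 24.8% in KO against 26.2, 25.9 and 25.5% in WT, while those of the other classes overlapped. The sums carry no test, since the members were chosen with results of these data known, and the pairs of identical counts enter them under both names. Those pairs enter the counts of called members given below in the same way.

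**Figure D1:**
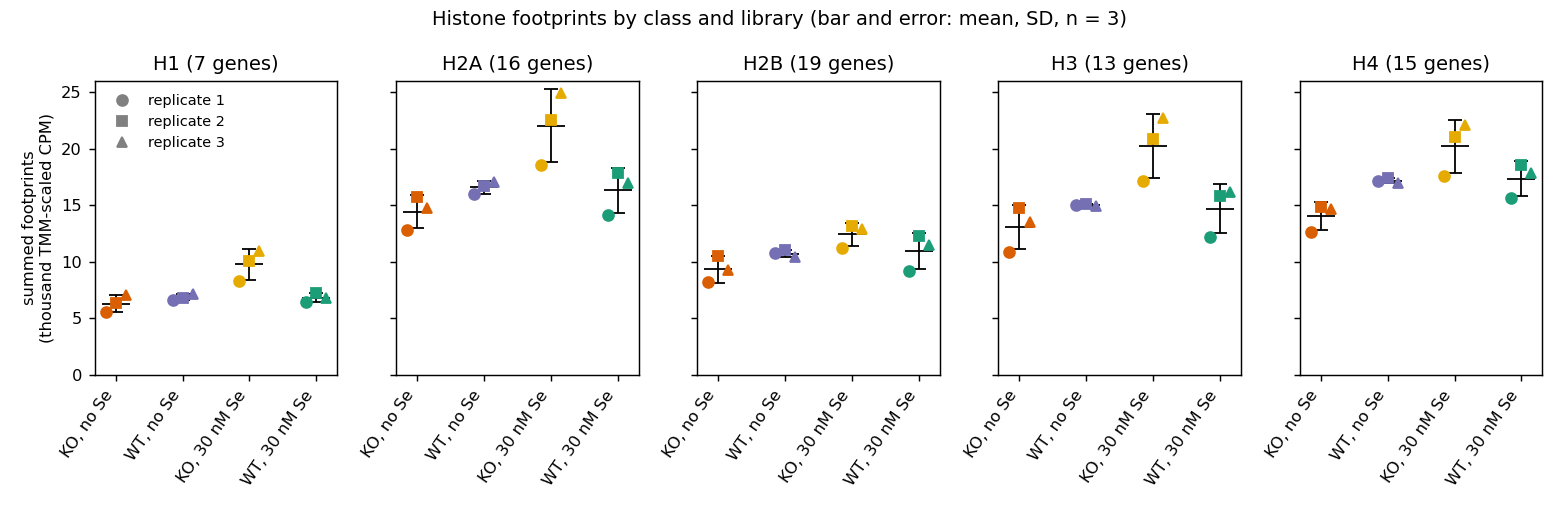
Summed footprints of the 5 histone classes in each library, in units of 1000 TMM-scaled CPM, with points for replicates, horizontal bars for group means and error bars for the SD (n = 3). In H1, H2A and H3 the 3 KO libraries with selenite lie above all WT libraries with selenite, and in H2B and H4 replicate 1 falls inside the WT range.

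Without selenite, histone footprints were lower in KO than in WT where they differed. The test was edgeR's quasi-likelihood test with Benjamini-Hochberg adjustment over all 10467 genes and a threshold of 0.05. Of the 70 members, 17 passed as lower and 0 as higher, and over all genes 12% passed as lower, 11.8% as higher and 23.9% in either direction. Lower were 3 of 7 H1 genes, 3 of 16 H2A, 4 of 19 H2B, 2 of 13 H3 and 5 of 15 H4. The median log2 fold change over the members was -0.14, with 13 of 70 above 0, against -0.00014 over all genes tested. In 27 members all 3 KO libraries lay below all 3 WT libraries and in 0 above, where 19.8% of all genes lay below in this way and 20% above. In the chromosome 1 cluster 6 of 11 members were lower, and its median was -0.36. These 6 include both names of the H2AC18 and H2AC19 pair and of the H4C14 and H4C15 pair, each of them 1 measurement. The median is the value of H2AC18 and H2AC19.

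The largest falls among members past the threshold and with a mean of at least 10 CPM were in H4C6, H1-1 and H4C13. H4C6, a replication-dependent H4 gene at chr6:26240393-26240793, had 337, 390.2 and 423 CPM in KO, against 727, 759 and 744 CPM in WT. Every KO library was well below every WT library, and the log2 fold change was -0.96 ± 0.11 (approximate standard error, edgeR adjusted p = 8.78e-09). H1-1, at chr6:26017032-26017787, had 40.5, 36.9 and 35.3 CPM in KO, against 72.0, 63.2 and 85.1 CPM in WT. The groups did not overlap, and the log2 fold change was -0.96 ± 0.18 (edgeR adjusted p = 8.03e-05). H4C13, a low H4 gene of the second chromosome 6 cluster, had 25.9, 30.6 and 32.4 CPM in KO, against 45.3, 54.5 and 41.9 CPM in WT. This was a log2 fold change of -0.67 ± 0.20 (edgeR adjusted p = 0.0114), a call that was lost without KO without selenite replicate 1, where the adjusted p was 0.0675, and without WT without selenite replicate 2, where it was 0.082. The H4C13 call was also lost under DESeq2, and those of H4C13 and H1-1 were lost when all libraries were thinned to the smallest total.

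Among the most abundant members, the pair H4C14 and H4C15 had 2924, 3622 and 3508 CPM in KO, against 4599, 4687 and 4451 CPM in WT, each under either name. The groups were apart, and the log2 fold change was -0.45 ± 0.09 (edgeR adjusted p = 0.000308). The pair H2AC18 and H2AC19 had 2361, 2908 and 2601 CPM in KO, against 3272, 3345 and 3498 CPM in WT. Here too no KO library reached a WT library, with a log2 fold change of -0.36 ± 0.10 (edgeR adjusted p = 0.0045). H2BC21, the most abundant H2B gene, had 966, 1356 and 1140.1 CPM in KO, against 1603, 1749 and 1471 CPM in WT, a log2 fold change of -0.48 ± 0.16 (edgeR adjusted p = 0.0432). That call was lost without any 1 of 6 libraries (KO without selenite 1 or 3, WT without selenite 1 or 2, KO with selenite 3 or WT with selenite 3), with edgeR adjusted p of up to 0.113, and without both libraries of lowest total, at 0.0702. It was lost on thinning as well.

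H1-5, a replication-dependent linker histone, had 544, 683 and 753 CPM in KO, against 763, 805 and 872 CPM in WT (log2 fold change -0.30 ± 0.11, edgeR adjusted p = 0.0343). All KO libraries were below all WT libraries, but the call was lost without KO without selenite replicate 1, where the change was -0.18, and without KO without selenite replicate 2 or WT without selenite replicate 2 or 3. It was also lost under DESeq2 and on thinning. The other abundant members did not pass. H1-2, the most abundant linker histone, had 2007, 2201 and 2432 CPM in KO, against 2175, 2279 and 2357 CPM in WT (-0.04 ± 0.09, edgeR adjusted p = 0.818). H3C14 and H3C15 had 2439, 3359 and 3043 CPM in KO, against 3518, 3584 and 3535 CPM in WT for H3C14 (-0.27 ± 0.16, edgeR adjusted p = 0.292). The KO libraries of this pair were all lower, but they spread more widely than those of WT. H4C3 had 1066, 1069.6 and 1099 CPM in KO, against 1193, 1235 and 1241 CPM in WT, and H2AC20 had 1102, 1398 and 1319 CPM in KO, against 1487, 1611 and 1734 CPM in WT. Both were likewise lower in all 3 KO libraries without passing, at -0.18 ± 0.09 and -0.34 ± 0.16 (edgeR adjusted p = 0.14 and 0.162). Without the libraries of lowest total, which belong to another group, 19 members passed as lower, where 12.7% of all genes did so.

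**Figure D2:**
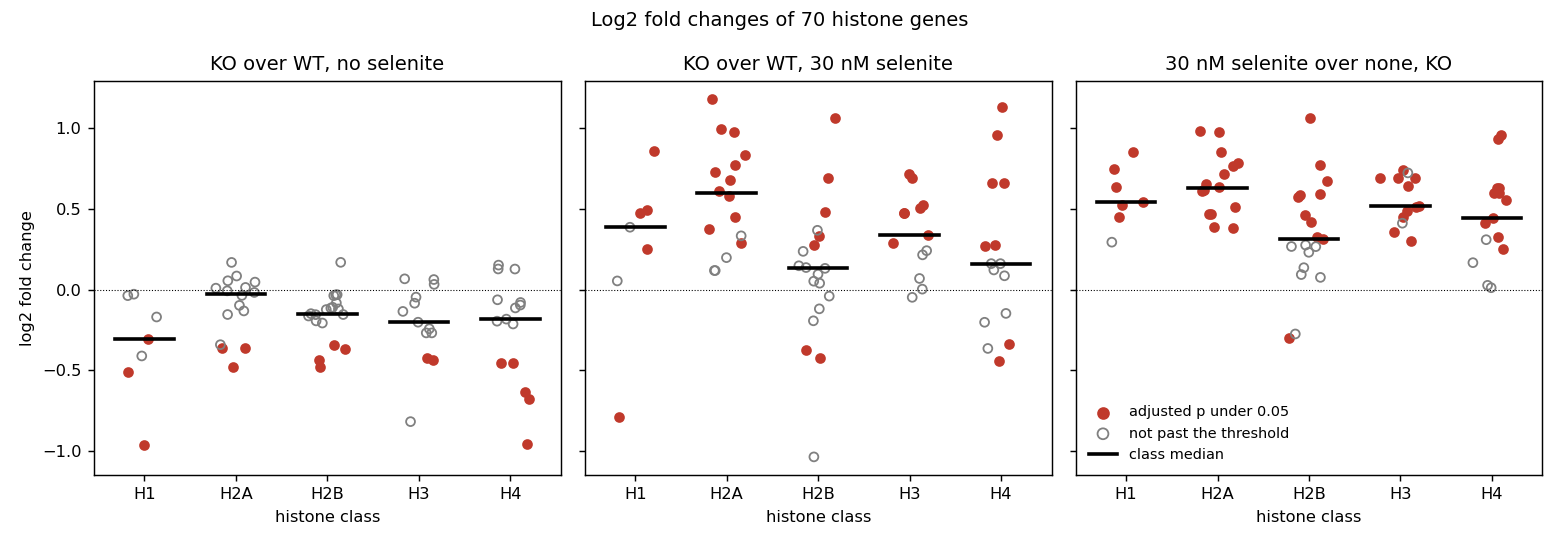
Log2 fold changes of the 70 histone genes by class in 3 comparisons, with filled points for genes past an edgeR adjusted p of 0.05, open points for the rest and bars for class medians. Without selenite the called genes are all below 0, and with selenite H2A has 12 of 16 called higher while H2B and H4 are spread on both sides of 0.

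With 30 nM selenite the direction was the opposite for most members. Of the 70 members, 35 passed as higher in KO than in WT and 5 as lower. Over all genes 21.3% passed as higher, 21.6% as lower and 42.9% in either direction. The member median was 0.28, with 57 of 70 above 0, against -0.015 over all genes. By class 12 of 16 H2A genes were higher and 0 lower, 8 and 0 of 13 H3 genes, 4 and 1 of 7 H1 genes, 6 and 2 of 15 H4 genes, and 5 and 2 of 19 H2B genes. The class medians were 0.60 for H2A, 0.39 for H1, 0.34 for H3, 0.16 for H4 and 0.13 for H2B. In 30 members all KO libraries lay above all WT libraries and in 4 below, where 24.7% and 25.2% of all genes did so.

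These counts moved with the libraries and with gene density. Leaving out both KO libraries of lowest total leaves 1 KO library with selenite. That group then has no spread of its own, and the calls of that setting rest on the spread of the other groups. Without both KO libraries of lowest total, 17 members passed as higher and 5 as lower, where 13.4% and 11.8% of all genes did so, and the member median was 0.11. By class 8 H2A, 4 H4, 2 H1, 2 H3 and 1 H2B genes were then higher. When each library's trend of footprints with the number of neighbouring genes, fitted over genes other than the members, was removed, 23 members passed as higher and 11 as lower, where 19.3% and 19.5% of all genes did so, with a member median of 0.040. The share of lower members in that setting was below that of all genes. The higher ones were 9 H2A, 4 H3, 4 H4, 3 H1 and 3 H2B genes, and the lower ones 5 H2B, 4 H4, 1 H1 and 1 H3. The part of depth and of gene density in the remaining counts was not tested.

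The largest rises were in H2AC13, H4C7 and H2BC6. H2AC13, a replication-dependent H2A gene at chr6:27808173-27808667, had 1739, 2303 and 2296 CPM in KO with selenite, against 802, 1016 and 971 CPM in WT with selenite. All 3 KO libraries, the deepest included, lay far above the WT libraries, and the log2 fold change was 1.18 ± 0.11 (edgeR adjusted p = 1.25e-09). It was 0.92 without both libraries of lowest total and 0.97 with the density trend removed. H4C7 was low, with 22.4, 22.9 and 18.0 CPM in KO, against 7.35, 10.6 and 11.3 CPM in WT (1.13 ± 0.33, edgeR adjusted p = 0.00512). Its groups did not overlap, and the change was 1.21 without both libraries of lowest total and 0.90 with the trend removed.

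H2BC6 had 269, 356 and 461 CPM in KO, against 126, 175 and 208 CPM in WT (1.07 ± 0.26, edgeR adjusted p = 0.00999). Replicate 1 was the lowest of the KO libraries, and without the other KO libraries the change was 0.68 with an edgeR adjusted p of 0.148. H2AC25, which lies outside the 3 large clusters, had 456, 629 and 825 CPM in KO, against 246, 374 and 341 CPM in WT (0.98 ± 0.23, edgeR adjusted p = 0.00713). All KO libraries were higher. The change was 0.53 without both libraries of lowest total, and 0.94 with the trend removed.

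Further H2A and H1 genes rose under each of these settings. H2AC7, at chr6:26198784-26199293, had 935, 1167 and 1329.6 CPM in KO, against 588, 657 and 673 CPM in WT. No KO library reached down to the WT range, and the log2 fold change was 0.83 ± 0.10 (edgeR adjusted p = 5.52e-08), or 0.57 both without the libraries of lowest total and with the trend removed. H2AC11 had 953, 1057 and 1254 CPM in KO, against 598, 699 and 611 CPM in WT (0.77 ± 0.11, edgeR adjusted p = 1.09e-06), or 0.60 and 0.51 under the same settings. The linker histone H1-4, at chr6:26156329-26157115, had 2442, 3113 and 3534 CPM in KO, against 1587, 1782 and 1629 CPM in WT. It rose in every KO library, with a log2 fold change of 0.86 ± 0.12 (edgeR adjusted p = 5.05e-06), or 0.57 and 0.60. H1-2 had 2794, 3185 and 3574 CPM in KO, against 2216, 2383 and 2255 CPM in WT (0.48 ± 0.09, edgeR adjusted p = 4.87e-05), or 0.31 and 0.23.

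Other calls were lost without both libraries of lowest total. H1-5 had 953, 1149 and 1234 CPM in KO, against 729, 842 and 793 CPM in WT (0.49 ± 0.11, edgeR adjusted p = 0.00035), and 0.29 without them (edgeR adjusted p = 0.105). With the density trend removed H1-5 was at 0.28 and passed (edgeR adjusted p = 0.0171). H3C14 had 3898, 4921 and 5464 CPM in KO, against 2699, 3796 and 3772 CPM in WT (0.47 ± 0.16, edgeR adjusted p = 0.0392), and 0.21 without them (edgeR adjusted p = 0.528). The groups did not overlap, but the call was also lost without any 1 of 6 libraries (KO with selenite 2 or 3, WT with selenite 1, KO without selenite 3 or WT without selenite 1 or 3), and with the density trend removed, at 0.25 (edgeR adjusted p = 0.102). H3C15 repeats this measurement. H3C13, an H3 gene of the same cluster, had 2197, 2942 and 3128 CPM in KO, against 1265, 1909 and 1848 CPM in WT (0.72 ± 0.21, edgeR adjusted p = 0.0208), and 0.41 without them (edgeR adjusted p = 0.337), and it was also lost without either one of them.

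H2BC18 had 1620.1, 2054 and 2086 CPM in KO, against 1109, 1559 and 1448 CPM in WT (0.48 ± 0.13, edgeR adjusted p = 0.00759), and 0.26 without the libraries of low total (edgeR adjusted p = 0.316), or 0.26 with the density trend removed (edgeR adjusted p = 0.0326). H2BC12 had 929, 1108 and 1126 CPM in KO, against 701, 919 and 883 CPM in WT (0.33 ± 0.12, edgeR adjusted p = 0.0247), and 0.17 without them (edgeR adjusted p = 0.485). Replicate 1 of KO was only just above the highest WT library for both H2B genes, and H2BC12 was also lost without KO with selenite replicate 2 or 3 or WT with selenite replicate 1. H4C3 had 1255, 1508 and 1561 CPM in KO, against 1157, 1124 and 1271 CPM in WT (0.28 ± 0.09, edgeR adjusted p = 0.0109), and 0.10 without them. H1-3, a replication-dependent linker histone, had 1693, 2106 and 2092 CPM in KO, against 1531, 1698 and 1702 CPM in WT (0.25 ± 0.09, edgeR adjusted p = 0.0263), and 0.062 without them. For both genes the lowest KO library lay below the highest WT library. H4C3 was also lost without KO with selenite replicate 3 or WT with selenite replicate 2, and H1-3 without KO with selenite replicate 2 or 3 or WT with selenite replicate 1. With the density trend removed H2BC12 stood at 0.073, H4C3 at 0.033 and H1-3 at -0.0064, and none of the 3 passed (edgeR adjusted p = 0.55, 0.786 and 0.968). The calls of these 3 genes were also lost on thinning.

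The abundant pairs that were lower without selenite did not pass with it. H4C14 and H4C15 had 4364, 5277 and 5616 CPM in KO, against 4135, 4893 and 4601 CPM in WT (0.16 ± 0.09, edgeR adjusted p = 0.158). H2AC18 and H2AC19 had 3175, 3801 and 3903 CPM in KO, against 2871, 3761 and 3379 CPM in WT (0.12 ± 0.10, edgeR adjusted p = 0.326). The groups overlapped in both pairs, and the same was true of H2AC20 and H2BC21, at 0.33 ± 0.16 and 0.13 ± 0.16 (edgeR adjusted p = 0.118 and 0.529).

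The 5 members lower in KO with selenite were H1-1, H4C6, H2BC8, H2BC3 and H4C1. H1-1 had 50.7, 49.2 and 33.9 CPM in KO, against 57.2, 91.3 and 92.1 CPM in WT (-0.79 ± 0.19, edgeR adjusted p = 0.00107). H4C6 had 460.2, 649 and 593 CPM in KO, against 686, 803 and 807 CPM in WT (-0.44 ± 0.11, edgeR adjusted p = 0.0012). In neither gene did the genotypes overlap, and the falls were also past the threshold without both libraries of lowest total, at -0.64 for H1-1 and -0.72 for H4C6. H4C6 was at -0.70 with the density trend removed, and the H1-1 call was lost on thinning. Both genes lie in the first chromosome 6 cluster, as do H2BC3 and H4C1, at -0.38 ± 0.10 and -0.34 ± 0.11 (edgeR adjusted p = 0.00318 and 0.0142). H2BC8, whose window was shown with its octamer, had 664, 580.3 and 477 CPM in KO, against 746, 749 and 824 CPM in WT (-0.42 ± 0.10, edgeR adjusted p = 0.00114). All KO libraries were lower, but the change was -0.20 without both libraries of lowest total (edgeR adjusted p = 0.237) and -0.67 with the density trend removed (edgeR adjusted p = 2.52e-05), and the call was lost on thinning. H2BC1, the least abundant member, had 2.63, 1.64 and 9.98 CPM in KO, against 0.817, 5.31 and 17.4 CPM in WT, a spread too wide to compare at this depth.

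**Figure D3:**
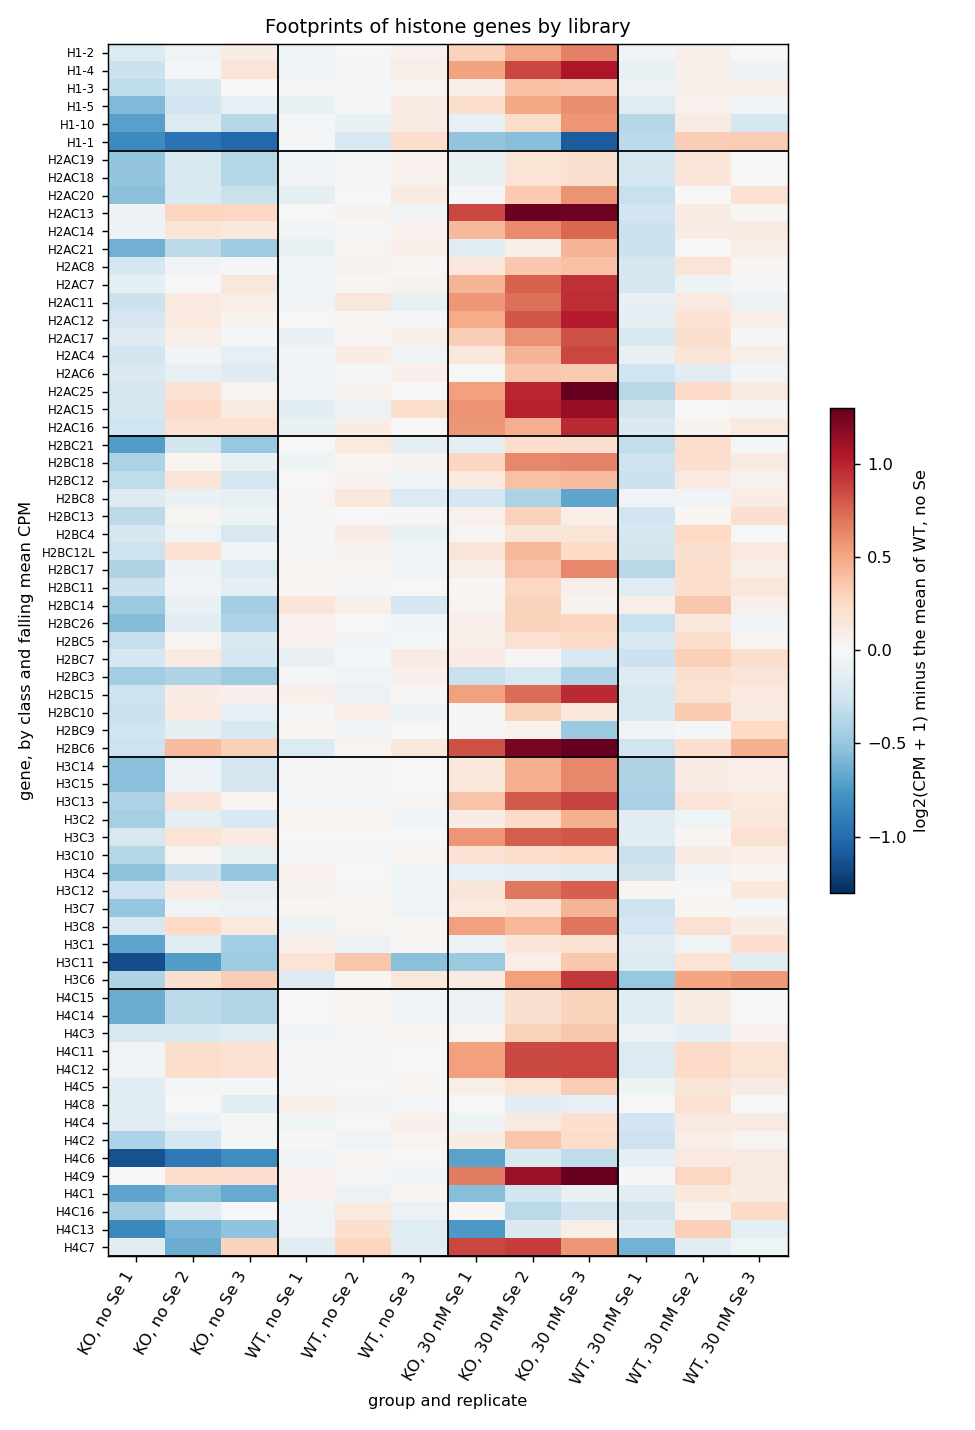
Footprints of 68 histone genes (rows, by class and falling mean) in the 12 libraries (columns), as log2(CPM + 1) minus the mean of WT without selenite, with red for higher and blue for lower and colours capped at 1.3 either way. H2BC1, at a mean of 5.54 CPM, and 1 other member are not drawn. KO with selenite is red in most rows and palest in its replicate 1, and H1-1, H4C6 and H2BC8 are blue there.

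Selenite against none in KO cells gave the largest number of called members. Of the 70, 54 passed as higher with selenite and 1 as lower, where 10.2% of all genes passed as higher, 10.3% as lower and 20.5% in either direction. The member median was 0.52, with 68 of 70 above 0, against 0.0076 over all genes. Higher were 16 of 16 H2A genes, 11 of 13 H3, 11 of 15 H4, 6 of 7 H1 and 10 of 19 H2B. In 54 members the libraries with selenite all lay above those without and in 1 below, where 18.3% and 18.8% of all genes did so. Without both libraries of lowest total, which leaves 1 KO library with selenite whose spread is taken from the other groups, 6 members passed as higher and 0 as lower, with a median of 0.34, and over all genes 27 passed in each direction. With the density trend removed 35 passed as higher and 1 as lower, where 5.68% and 6.07% of all genes did so.

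The largest rises were in H2BC6, H2AC25 and H2AC13. H2BC6 had 269, 356 and 461 CPM in KO with selenite, against 125, 201 and 186 CPM in KO without (1.07 ± 0.26, edgeR adjusted p = 0.0213). H2AC25 had 456, 629 and 825 CPM with selenite, against 270.3, 360.4 and 324 CPM without (0.98 ± 0.22, edgeR adjusted p = 0.0158). Both were higher in all libraries with selenite, but neither call stood without both libraries of lowest total, at 0.68 and 0.54 (edgeR adjusted p = 0.346 and 0.163). H2BC6 was also lost without KO without selenite replicate 1 or KO with selenite replicate 2 or 3, and H2AC25 without KO without selenite replicate 1 or KO with selenite replicate 2. H2AC13 had 1739, 2303 and 2296 CPM with selenite, against 912, 1159.7 and 1146 CPM without (0.98 ± 0.11, edgeR adjusted p = 2.47e-06). Its groups were wide apart, and the change was 0.72 without both libraries of lowest total (edgeR adjusted p = 0.00661).

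H1-4 had 2442, 3113 and 3534 CPM with selenite, against 1405, 1685 and 1923 CPM without (0.86 ± 0.12, edgeR adjusted p = 8.11e-05). H1-5 had 953, 1149 and 1234 CPM with selenite, against 544, 683 and 753 CPM without (0.75 ± 0.11, edgeR adjusted p = 2.23e-05). H2AC11 had 953, 1057 and 1254 CPM with selenite, against 529.9, 703 and 683 CPM without (0.76 ± 0.11, edgeR adjusted p = 2.64e-05). None of these groups overlapped, and without both libraries of lowest total the changes were 0.57, 0.55 and 0.60 and still past the threshold (edgeR adjusted p = 0.026, 0.0493 and 0.0324).

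The H4C14 and H4C15 pair had the KO values given above, 4364, 5277 and 5616 CPM with selenite, against 2924, 3622 and 3508 CPM without (0.60 ± 0.09, edgeR adjusted p = 4.94e-05), and H4C6 rose by 0.55 ± 0.11 (edgeR adjusted p = 0.000712) while staying below its WT level. Without both libraries of lowest total these were 0.40 and 0.28 (edgeR adjusted p = 0.0794 and 0.281). The 1 fall was in H2BC8, with 664, 580.3 and 477 CPM with selenite, against 686, 728 and 718 CPM without (-0.30 ± 0.10, edgeR adjusted p = 0.0358). All libraries with selenite were lower, but the call was lost without any 1 of 6 libraries (each of KO without selenite 1, 2 and 3, KO with selenite 2 and 3, and WT with selenite 3). It was -0.19 without KO with selenite replicate 3 and -0.080 without both libraries of lowest total, and -0.55 with the density trend removed (edgeR adjusted p = 0.00169). H1-1 did not pass, at 0.29 ± 0.21 (edgeR adjusted p = 0.318).

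In WT cells 0 of the 70 members passed in either direction by edgeR, 0 had an unadjusted p under 0.05, and DESeq2 called 0. Over all genes 0.0191% passed as higher (2 genes), 0% as lower and 0.0191% in either direction. The member median was 0.0019, against -0.0043 over all genes. In 0 members did the libraries with and without selenite fail to overlap, where 4.07% of all genes were higher in all libraries with selenite and 4.47% lower. H2AC13 had 802, 1016 and 971 CPM in WT with selenite, against 951, 986 and 923 CPM in WT without (-0.04 ± 0.11). H1-4 had 1587, 1782 and 1629 CPM with selenite, against 1641, 1679 and 1789 CPM without (-0.03 ± 0.12). In both genes the range with selenite contained or overlapped the range without. WT with selenite replicate 1 was the lowest library of its group in 5 of the 5 class sums.

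The difference between the selenite responses of KO and WT cells was tested as an interaction. Of the 70 members 33 passed with a larger log2 change in KO and 0 with a smaller one, where 3.76% and 3.69% of all genes passed in these directions and 7.45% in either. The member median was 0.53, with 65 of 70 above 0. They were 12 of 16 H2A genes, 8 of 15 H4, 6 of 7 H1, 4 of 13 H3 and 3 of 19 H2B. The 5 members with the lowest adjusted p were H2AC13 at 1.01 ± 0.15, H2AC7 at 0.82 ± 0.15, H1-5 at 0.79 ± 0.15, H2AC11 at 0.79 ± 0.15 and H1-4 at 0.89 ± 0.16 (edgeR adjusted p = 0.000499, 0.00118, 0.00252, 0.00386 and 0.00533). Without both libraries of lowest total, which leaves 1 KO library with selenite, the member median was 0.35, against 0.0023 over all genes. H2AC13 was then at 0.75. Most interaction calls were lost in that fit, for members and for all genes alike. With the density trend removed 13 members passed with a larger change in KO and 1 with a smaller one, where 1.66% and 1.73% of all genes did so. The comparisons share groups of libraries, so the counts of one do not support those of another.

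The head-to-head pairs allowed H2A and H2B genes with a common upstream region, the same neighbours and the same libraries to be set against each other. With selenite the KO over WT log2 fold change was larger for the H2A gene than for its H2B partner in 10 of 10 pairs, with a median difference of 0.68. Of the H2A genes 9 were called higher and 0 lower, and of the H2B genes 2 were called higher and 1 lower. H2AC8 was at 0.29 ± 0.10 and H2BC8 at -0.42 ± 0.10 (edgeR adjusted p = 0.0155 and 0.00114), so that partners 233 bases apart were called in opposite directions. H2AC13 was at 1.18 ± 0.11 and H2BC13 at 0.14 ± 0.11 (edgeR adjusted p = 1.25e-09 and 0.317). H2AC7 was at 0.83 ± 0.10 and H2BC7 at -0.12 ± 0.13 (edgeR adjusted p = 5.52e-08 and 0.487), although H3C4 overlaps H2AC7. Both partners were called higher in 2 pairs, H2AC25 with H2BC26 and H2AC15 with H2BC15. The second had H2AC15 at 1.00 ± 0.14 and H2BC15 at 0.69 ± 0.12 (edgeR adjusted p = 8.04e-06 and 1.67e-05). The direction was not particular to selenite. Without selenite the KO over WT change was also larger for the H2A gene in 10 of 10 pairs, with a median difference of 0.13. For selenite against none in KO it was larger in 10 of 10 as well, with a median difference of 0.25.

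The ratio within a library does not depend on its scaling. The log2 ratio of H2AC13 to H2BC13 counts was 1.61, 1.76 and 1.97 in KO with selenite, against 0.79, 0.86 and 0.60 in WT with selenite. It was 1.07, 1.04 and 1.12 in KO without selenite, against 0.81, 0.83 and 0.73 in WT without selenite. The genotypes were apart in both conditions, and by more with selenite. The log2 ratio of H2AC8 to H2BC8 was 0.49, 0.89 and 1.20 in KO with selenite, against -0.04, 0.34 and 0.06 in WT with selenite. The log2 ratio of H2AC7 to H2BC7 was 1.07, 1.48 and 1.88 in KO with selenite, against 0.79, 0.35 and 0.48 in WT with selenite. In each of these pairs the KO library of highest total had the lowest KO ratio and still lay above all WT libraries.

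With selenite 8 of 10 pairs had a higher H2A to H2B ratio in every KO library than in any WT library, and 2 overlapped. Among 484 other head-to-head gene pairs with starts at most 1000 bases apart, 36.4% had non-overlapping ratios in this comparison, in either direction and with 0.5 added to each count. Those pairs were not matched to the histone pairs on counts or on the distance between starts. Without selenite 3 of 10 histone pairs were apart, all with the H2A share higher in KO, against 28.5% of other pairs. For selenite against none, 4 of 10 were apart in KO, against 24.6% of other pairs, and 0 in WT, against 10.3%. Of the pairs shown, those of H2BC8 and H2BC7 hold the octamer and that of H2BC13 does not, and no relation of these letters to the changes was tested.

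**Figure D4:**
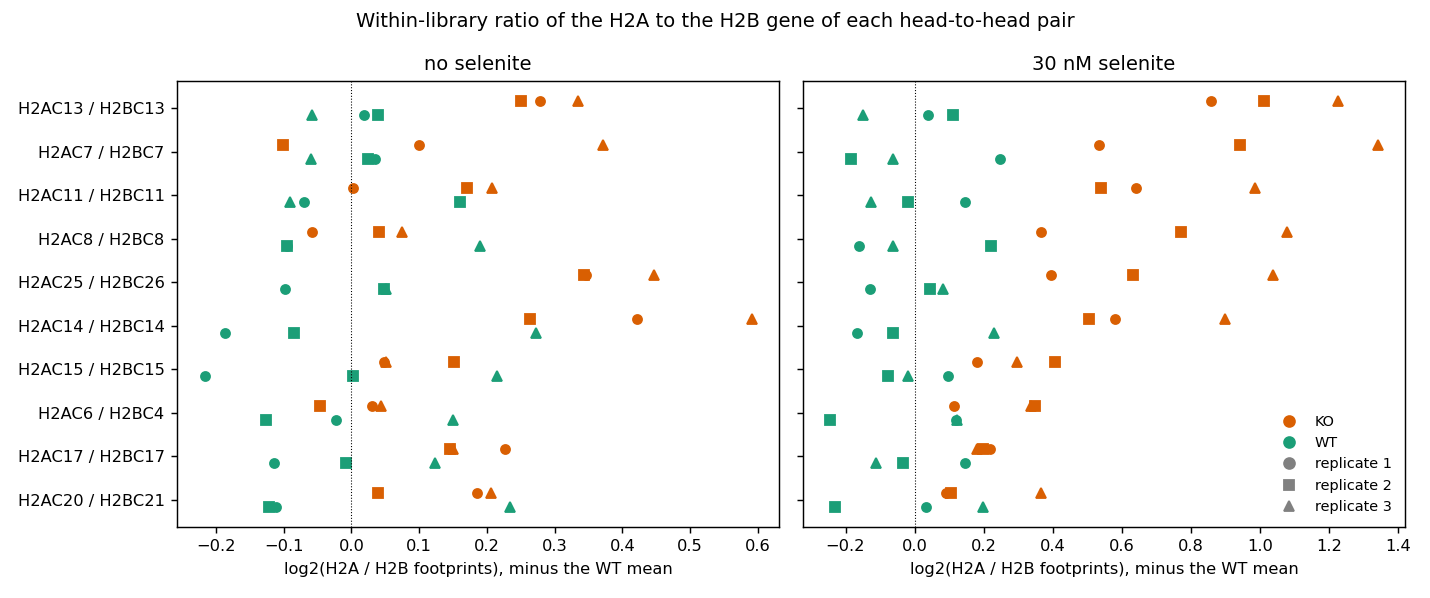
Log2 ratio of the H2A to the H2B gene of 10 head-to-head pairs in each library, minus the mean of the WT libraries in the same condition, without selenite (left) and with 30 nM selenite (right, on a wider axis). With selenite the KO points of 8 pairs lie wholly to the right of the WT points, and H2AC13 over H2BC13 lies apart in both panels.

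Histone genes outside the naming pattern were counted from a list of replication-independent and other variants, of which 14 of 18 were in the table and tested. With selenite 6 of 14 were higher in KO than in WT and 1 lower, with a median of 0.41, and without selenite 0 were higher and 1 lower, with a median of -0.19. Over all genes 21.3% and 21.6% were higher and lower with selenite, and 11.8% and 12% without. For selenite against none 6 were higher and 0 lower in KO, where 10.2% and 10.3% of all genes were. In WT 0 passed, where 0.0191% of all genes did. H3-3A, a gene of the replacement histone H3.3, was at 1.33 ± 0.27 in KO over WT with selenite (edgeR adjusted p = 0.00386), and H2AX, the variant phosphorylated at DNA breaks, at 0.87 ± 0.24 (edgeR adjusted p = 0.0155). H3-4, a testis H3, was at -0.60 ± 0.15 without selenite (edgeR adjusted p = 0.00313) and was the 1 variant past the threshold in the interaction, at 1.02 ± 0.21 (edgeR adjusted p = 0.00608). Over all genes 3.76% passed in the interaction with a larger change in KO and 3.69% with a smaller one. With the 2 libraries of lowest total left out, the variant median was 0.26 in KO over WT with selenite. It was 0.23 for selenite in KO and 0.39 in the interaction. H3-3A was then at 1.53 (edgeR adjusted p = 0.00216), and H2AX at 0.45 and H3-4, in the interaction, at 0.88 no longer passed (edgeR adjusted p = 0.171 and 0.22).

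The genes that act on histone transcription and mRNA ends gave these counts. Of 22 tested genes of histone gene transcription and of histone mRNA 3' end processing and decay, 3 were higher and 7 lower in KO with selenite, with a median of -0.25, and 3 were higher and 2 lower without selenite, with a median of -0.060. Over all genes 21.3% were higher and 21.6% lower with selenite, and 11.8% and 12% without, so the counts without selenite were near the share of all genes. NPAT, the coactivator of histone gene transcription, was at -0.70 ± 0.20 with selenite (edgeR adjusted p = 0.00421), and CPSF3, the nuclease that cuts histone pre-mRNA, at -0.88 ± 0.12 (edgeR adjusted p = 3.31e-07). SNRPB, a core Sm protein of spliceosomal particles and of the U7 particle, was at 1.07 ± 0.13 (edgeR adjusted p = 5.61e-07). The largest rise of the list was in CTIF, at 1.36 ± 0.39 (edgeR adjusted p = 0.00505). With both libraries of lowest total left out, the list median in KO over WT with selenite was -0.22. NPAT was then at -0.86, CPSF3 at -0.67 and SNRPB at 0.74. Without selenite LSM10, a U7-specific protein, was at 0.84 ± 0.30 and ERI1, an exonuclease that trims histone mRNA ends, at 0.70 ± 0.21 (edgeR adjusted p = 0.0389 and 0.013).

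Of 27 tested histone chaperones and importers, 5 were higher and 11 lower in KO with selenite, with a median of -0.21, and 3 were higher and 5 lower without selenite, with a median of -0.16. Set against the same shares of all genes, 21.3% and 21.6% with selenite and 11.8% and 12% without, the higher counts were near or below them. NAP1L1, a chaperone of H2A and H2B, was at -1.004 ± 0.10 and ANP32E, a chaperone of H2A.Z, at -1.01 ± 0.15 in KO over WT with selenite (edgeR adjusted p = 4.14e-10 and 1.47e-06). CABIN1, of the HIRA complex, and TONSL, a reader of newly made H4, were at 1.14 ± 0.22 and 1.05 ± 0.30 (edgeR adjusted p = 4.79e-05 and 0.00503). Leaving out the libraries of lowest total, the list median in KO over WT with selenite was -0.049, and TONSL, at 0.46, no longer passed. Without selenite DNAJC9, a co-chaperone of H3 and H4, was at -0.71 ± 0.17, CHAF1A, of the replication-coupled assembly factor CAF-1, at -0.61 ± 0.15 and ASF1A at 0.63 ± 0.14 (edgeR adjusted p = 0.00206, 0.00252 and 0.000581).

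DNA replication genes, which are expressed in the same phase of the cell cycle, were mostly lower in KO where they were called between genotypes. Of 36 tested, 2 were higher and 14 lower with selenite, with a median of -0.23, and 0 were higher and 8 lower without selenite, with a median of -0.17, where 21.3% and 21.6% of all genes were higher and lower with selenite and 11.8% and 12% without. For selenite against none in KO 7 were higher and 7 lower, where 10.2% and 10.3% of all genes were. In WT 0 passed, where 0.0191% of all genes did. Without both libraries of lowest total the list median was -0.17 in KO over WT with selenite and 0.053 for selenite in KO. Their summed level was 4819 to 4931 CPM in KO with selenite, against 5441 to 5659 CPM in WT with selenite, and 4671 to 4953 CPM in KO without selenite, against 5434 to 5574 CPM in WT without selenite. The sums of this list did not overlap between the genotypes in either condition, and those of KO with and without selenite overlapped. CCNE2, a G1/S cyclin, was at -1.60 ± 0.25 in KO over WT with selenite, and POLA1, the catalytic subunit of DNA polymerase alpha, at -0.94 ± 0.16 (edgeR adjusted p = 2.76e-06 and 1.47e-05). Without selenite MCM2, of the replicative helicase, was at -0.63 ± 0.12 and TK1, thymidine kinase, at -0.62 ± 0.12 (edgeR adjusted p = 9.4e-05 and 0.00017). The share of cells in S phase was not measured. In bulk footprint libraries a change in that share cannot be told apart from a change in histone mRNA per cell or in its translation.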

How the data were processed

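Footprint libraries of A375 cells were compared in 4 groups of 3. The raw count table holds whole-number read counts per gene and is used as deposited by the authors. Per the submitters' processing notes, Trim Galore 0.6.10, STAR 2.7.9a, DESeq2 and GRCh38 were used, with no role or order given. The counter, the annotation, the treatment of reads shared between genes and any collapsing of duplicates are not given in the sources used here. The second deposited table, a normalized signal, was checked and equals the counts divided by 1 factor per library, and it was not tested.

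Genes were filtered with filterByExpr (minimum count 10, minimum total 15), scaled by TMM and fitted over all 12 libraries with edgeR 4.0.16 (glmQLFit, robust) in R 4.3.3, with 5 contrasts and Benjamini-Hochberg adjustment over 10467 genes at 0.05. Standard errors are approximations, computed as the log2 fold change over the root of F. The rule for members given by library took the 3 most abundant of each class, up to 3 rises and 3 falls per contrast (past the threshold, mean of at least 10 CPM, groups not overlapping), 5 members by adjusted p in the interaction and the identical pairs. From each other list it took up to 4 genes per contrast. Further members of head-to-head pairs, H2BC1, H2BC3 and H4C1 were chosen after their values were seen. The members and all gene lists were chosen with earlier results of these data known. Alternatives were DESeq2 1.42.0, other filters and scaling, thinning, leaving out libraries, a replicate block and removal of a gene density trend. The values of 1 member are not reported here individually, though it enters the counts and sums. The code was tested on simulated counts. Whether replicate numbers in the labels pair the samples was not settled: same-number correlations ran from -0.030 to 0.28. The main fit held no replicate term.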

Additional observations from a re-analysis of the deposited data

Results flagged for a closer look

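In 14 of the members singled out by name, the response to selenite differed between KO and WT cells by the interaction test, each with a larger log2 change in KO. For the linker histones the difference of the log2 changes was 0.89 for H1-4, 0.79 for H1-5, 0.51 for H1-2 and 0.42 for H1-3. For H2A genes it was 1.01 for H2AC13, 0.82 for H2AC7, 0.79 for H2AC11 and 0.48 for H2AC18, whose counts are also those of H2AC19, at 0.48. For H2BC18 it was 0.64. For H4 genes it was 0.61 for H4C14, whose counts are also those of H4C15, at 0.61, and 0.51 for H4C6 and 0.46 for H4C3. Without both libraries of lowest total, which leaves 1 KO library with selenite, H2AC13 was at 0.75. Most interaction calls were lost in that fit, over all genes as well. Leaving out 1 library at a time, in 12 fits, lost the calls of H1-3 and H2BC18 in 9, of H2AC18 and H2AC19 in 8, of H4C6 in 7, of H4C3 in 6 and of H1-2 in 1, without KO without selenite replicate 1. Each of these 7 calls was also lost with the gene density trend removed, at 0.14 for H1-3, 0.41 for H2BC18, 0.25 for H2AC18 and H2AC19, 0.23 for H4C6, 0.20 for H4C3 and 0.25 for H1-2. The calls of H2AC13, H2AC7, H2AC11, H1-4, H1-5, H4C14 and H4C15 were lost in 0 of the 12 fits and passed with that trend removed, at 0.81, 0.53, 0.49, 0.60, 0.59, 0.38 and 0.37.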

How the results depend on the processing

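Without both libraries of lowest total, both from KO with selenite, 17 members were higher in KO with selenite than in WT, 6 were higher and 0 lower with selenite in KO, and 1 passed in the interaction. Thinned to the smallest total, 9 were lower in KO without selenite, 1 was lower in KO with selenite and 0 were lower with selenite in KO. In the interaction 14 passed. Of all 8542 genes tested after thinning, 409, 998 and 274 were lower in these 3 comparisons. In the interaction 50 of them had a larger and 32 a smaller change in KO. With the gene density trend removed, 23 were higher and 11 lower in KO with selenite, 35 were higher with selenite in KO, 13 had a larger and 1 a smaller change in KO in the interaction, and H1-3 turned to -0.0064 in KO over WT with selenite (edgeR adjusted p = 0.968). With at least 30 counts in 3 libraries, 0 were lower with selenite in KO, where 984 of all 7399 genes tested were. Fewer samples or reads are part of the first 2 settings; for the others the cause was not tested.

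Leaving out 1 library at a time, the count of members lower in KO without selenite ran from 11 (without KO without selenite 1) to 21, that of members higher in KO with selenite from 23 (without KO with selenite 3) to 41 and lower from 4 to 6, that of members higher with selenite in KO from 37 to 57 and lower from 0 to 1, and that of the interaction from 11 to 42, with 0 to 1 smaller. The interaction count was 11 without KO without selenite 1 and 20, 15 and 18 without WT without selenite 1, 2 and 3. It was 15 and 16 without KO with selenite 2 and 3, and 13 without WT with selenite 1. Over all genes the calls with a larger change in KO fell from 394 as well. In the same order they were 71, then 186, 181 and 243, then 123 and 153, then 145, with 10664 to 10749 genes tested. Without KO without selenite 1, 1080 of all genes were lower in KO without selenite, against 1261 with all libraries. Without KO with selenite 3, 1960 were higher in KO with selenite, against 2228.

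With a replicate block, 23 members were lower in KO without selenite, and 41 were higher and 5 lower in KO with selenite. For selenite in KO 59 were higher and 1 lower, with 0 in WT and 48 in the interaction. Calls over all 10467 genes rose in number too. Of these genes 1405 were lower in KO without selenite, and 2371 were higher and 2408 lower in KO with selenite. For selenite in KO 1294 were higher and 1309 lower. In the interaction 645 passed with a larger change in KO and 623 with a smaller one, against 394 and 386 in the main fit. Same-number correlations were weak, but 2 of 3 samples correlated best with their own number in each comparison. Whether the numbers pair the samples is therefore not settled, and the main fit held no replicate term.

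Summed CPM of H3 in WT without selenite was 14890.1 with DESeq2 size factors. With identical members kept once, in the order KO without, WT without, KO with and WT with selenite, H2A summed to 11826, 13216, 18409.6 and 12996 CPM and H4 to 10729.5, 12621, 15137 and 12813 CPM, and all histones to 58483 in WT without and 58352 in WT with selenite. With near-identical members also kept once, a setting chosen after seeing the data, H2A was the same, H3 summed to 10119, 11488.5, 15483 and 11299 CPM, H4 to 9676, 11658, 13505 and 11784 CPM and all histones to 47264, 53974, 69614 and 53900.4 CPM. Of 3067 other recomputed values, 2822 kept their direction and their side of the threshold, 202 lost and 42 gained a call, and 1 changed sign.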
